A study of Mus musculus with 10 samples.

Results

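The 8 genes described here encode the MHC class II antigen presentation machinery: H2-Aa, H2-Ab1, H2-Eb1, H2-DMa, H2-DMb1, Cd74, Ciita and Ctss. They were chosen by name, as 8 of the 43629 genes in the liver count table, and all 8 were among the 14143 genes that passed the filter on low counts. The livers came from adult male KL mice on an FVB background, which carry Cre-dependent engineered alleles, Lkb1 flox/flox among them, in every cell and develop lung tumours after intranasal adenovirus with a CMV promoter driving Cre. Both groups therefore carried the same alleles, the same virus and lung tumours, and the virus was given to the airways, not to the liver. The labels called 5 mice non-cachectic (NCACS, mice 11 to 15, weight change between -14 and -3%) and 5 mice cachectic (CACS, mice 16 to 20, weight change between -33 and -29%), and gave no ages, batches or collection times. Each library came from 1 mouse.

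MHC class II molecules display peptides from ingested proteins to CD4 T cells. An α and a β chain assemble in the endoplasmic reticulum around the invariant chain, which is trimmed by cathepsins in endosomes until a short peptide is left in the groove, and the DM heterodimer then exchanges that peptide for antigen. Dendritic cells, B cells and macrophages make these proteins constitutively, and interferon-γ can induce them in other cells through the transactivator CIITA, which binds no DNA itself but joins the factors seated on the X and Y boxes of class II promoters. In the liver, hepatocytes form most of the tissue and Kupffer cells are its resident macrophages.

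RefSeq promoter windows of 300 bases (250 before to 50 after the start, GRCm38.p6) were searched for these boxes and were matched for 5 of the 8 genes, H2-Aa, H2-Eb1, H2-DMa, H2-DMb1 and Ctss, with 2 windows for H2-DMa. The stretches from 110 to 31 bases before the start are printed for the 3 genes with a Y box in this range, in lower case with capitals marking the Y box (ATTGG, or its reverse complement) and the X box (searched as AGNAACNG), both searched on both strands. They lie at chr17:34287854-34287933 (reverse strand), chr17:34305757-34305836 (forward strand) and chr17:34153081-34153160 (forward strand). The start is that of the RefSeq window. For H2-DMb1 it differs from the gene coordinates given below, which begin at 34153072, so its stretch lies inside them.
H2-Aa: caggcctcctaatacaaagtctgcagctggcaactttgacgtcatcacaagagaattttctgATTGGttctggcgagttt
H2-Eb1: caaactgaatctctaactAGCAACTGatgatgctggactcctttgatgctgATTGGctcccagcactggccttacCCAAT
H2-DMb1: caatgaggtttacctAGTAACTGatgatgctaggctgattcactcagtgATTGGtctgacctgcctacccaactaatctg

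In H2-Eb1 and H2-DMb1 the X box was followed on the same strand by a Y box whose start lay 33 and 34 bases after the start of the X box. The combination of an X box and a Y box starting 20 to 40 bases later occurred in 99 of 32851 promoter windows (0.301%). The Y box letters alone occurred in 37.4% of windows and the X box letters in 17.4%, so neither is rare by itself. The longest run that both stretches shared was aactgatgatgct, 13 bases that begin inside the X box. The H2-Aa stretch held 1 Y box, at position -48 from the gene's start, and no match to the X box letters. One of the windows of H2-DMa held a Y box at position -198, and its other window and the Ctss window held no match. The interferon-γ activated site (GAS, searched as TTCNNNGAA) was in 8.3% of all windows and in 0 of the 6 windows of these 5 genes. So few windows cannot tell a count of 0 from that share. Ciita had no window, and the window of H2-DMb2, a class II chain gene outside the 8, held 1 such site.

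Total counts ranged from 31945328 to 38306888 in NCACS and from 31459179 to 40746178 in CACS livers. The hepatocyte markers, among them Alb and Apoa1, summed to between 83804 and 131528 CPM (counts scaled to library size, normalized by TMM) in NCACS and between 124076 and 151362 CPM in CACS livers. All 11 dendritic cell markers were detected at low levels, with sums of 10.3 to 15.04 CPM in NCACS livers and 12.5 to 15.5 CPM in CACS livers. In bulk liver, fewer cells of a type and less RNA per cell cannot be told apart.

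No difference between the groups was detected for any class II gene. By the quasi-likelihood test of edgeR, adjusted over all genes by the Benjamini-Hochberg method with 0.05 as the threshold, 0 of the 8 genes were called, against 538 of 14143 genes (3.8%; 1.89% higher and 1.92% lower in CACS livers). At an unadjusted p under 0.05, 0 of the 8 passed against 21.6% of all genes. DESeq2 called 0 of the 8 (8.82% of all genes it gave an adjusted p) and limma-voom 0 of the 8 (3.6% of all genes). The 2 groups' CPM overlapped for all 8 genes, whereas 7.07% of tested genes did not overlap, 3.13% with CACS lower. The fitted log2 fold change of CACS over NCACS was below 0 for all 8, as for 50.6% of tested genes, with a median of -0.36 against -0.01 over all tested genes. The 8 genes vary together among livers, so their common sign is not 8 separate observations. The lower ends of the 95% intervals lay between -1.84 (Ciita) and -0.95 (H2-Aa), so sizeable falls remained inside them. Their upper ends lay between 0.13 (Ciita) and 0.86 (H2-DMb1), so rises remained inside them as well.

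**Figure D1:**
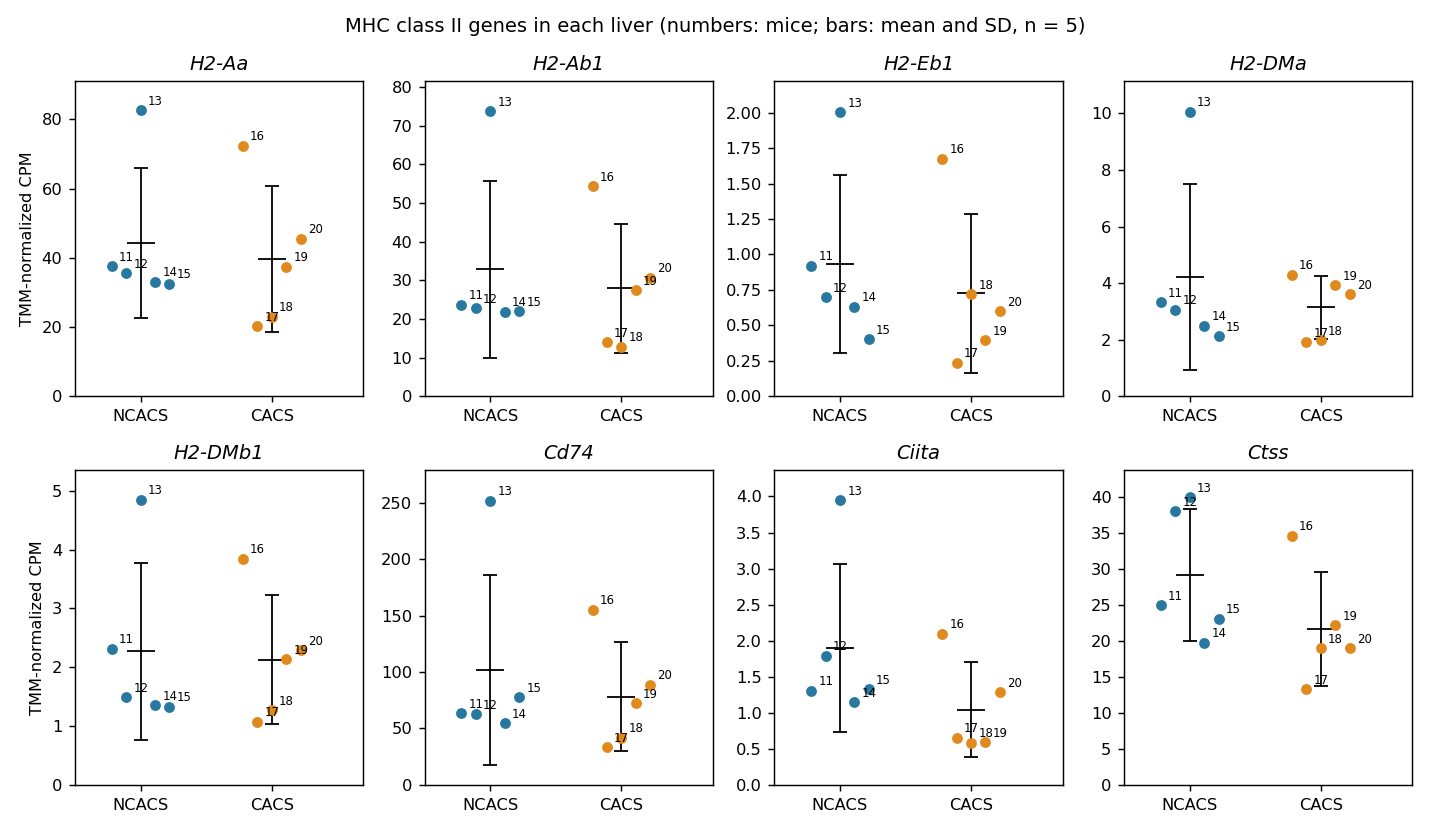
TMM-normalized CPM of each class II gene in each liver, with mouse numbers beside the points and black bars for the mean and SD of 5 livers per group. NCACS mouse 13 and CACS mouse 16 were the highest of their groups for all 8 genes, and the groups overlapped for every gene.

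H2-Aa (ENSMUSG00000036594, reverse strand of chromosome 17 of GRCm38, 34282744 to 34287823) encodes the α chain of the I-A molecule. Its level in NCACS mice 11 to 15 was 37.5, 35.6, 82.7, 33.1 and 32.5 CPM, in that order. In CACS mice 16 to 20 it was 72.4, 20.3, 22.9, 37.4 and 45.5 CPM. A single liver in each group stood high, and CACS mice 17 and 18 lay below every NCACS mouse. The mean was 44.3 ± 21.6 CPM in NCACS and 39.7 ± 21.01 CPM in the CACS group (SD, n = 5 each). On the log2 scale the estimated difference, CACS over NCACS, was -0.16 (95% interval -0.95 to 0.64, standard error, SE, 0.364; adjusted p = 0.845, edgeR), and a two-sided exact permutation test of mean log2 CPM gave p = 0.611.

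H2-Ab1 (ENSMUSG00000073421, forward strand, chromosome 17, 34257689 to 34269419) encodes the β chain that pairs with the H2-Aa product. The NCACS livers had 23.6, 22.8, 73.8, 21.8 and 22.02 CPM. The CACS livers had 54.4, 14.03, 12.8, 27.4 and 30.7 CPM. Apart from mouse 13, the NCACS livers were nearly level, within 21.8 to 23.6 CPM, while the CACS livers spread over 4.24-fold. The log2 estimate was -0.23 (SE 0.451, adjusted p = 0.811, edgeR; exact permutation p = 0.619).

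H2-Eb1 (ENSMUSG00000060586, forward strand, chromosome 17, 34305867 to 34316674) encodes the β chain of the second class II molecule, I-E. It was scarce, with 13 to 62 counts per NCACS liver and 9 to 67 counts per CACS liver, so counting error adds to each value. The NCACS livers had 0.920, 0.697, 2.01, 0.632 and 0.401 CPM. The CACS livers had 1.67, 0.236, 0.718, 0.394 and 0.601 CPM. The highest liver of each group was again mouse 13 and mouse 16. The log2 estimate was -0.35 (SE 0.536, adjusted p = 0.758, edgeR; exact permutation p = 0.460). The gene of the partner α chain is annotated as a pseudogene, H2-Ea-ps, in the C57BL/6J reference and had 11 to 53 counts per liver. Whether these FVB mice made an I-E molecule was not tested. H2-Ea-ps was read after the values of the other genes had been seen. It had a log2 estimate of -0.28 (adjusted p = 0.757, edgeR) and was highest in the same mice 13 and 16, at 1.71 and 1.17 CPM.

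Cd74 (ENSMUSG00000024610, forward strand, chromosome 18, 60803848 to 60812652) encodes the invariant chain, which fills the groove and directs class II molecules to endosomes. The NCACS livers had 63.6, 62.8, 251.6, 54.8 and 77.4 CPM. The CACS livers had 155.3, 33.4, 41.7, 72.1 and 88.7 CPM. Mouse 13 thus had 4.59 times the level of the lowest NCACS liver, and mouse 16 had 4.65 times that of the lowest CACS liver. The log2 estimate was -0.38 (SE 0.497, 95% interval -1.47 to 0.70, adjusted p = 0.707, edgeR; exact permutation p = 0.563).

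H2-DMa and H2-DMb1 encode the α and β chains of the DM heterodimer, the peptide exchange factor. H2-DMa (ENSMUSG00000037649, forward strand, chromosome 17, 34119541 to 34139101) had 3.32, 3.06, 10.1, 2.50 and 2.13 CPM in the NCACS livers and 4.30, 1.91, 1.99, 3.92 and 3.61 CPM in the CACS livers. H2-DMb1 (ENSMUSG00000079547, forward strand, chromosome 17, 34153072 to 34160230) had 2.31, 1.49, 4.85, 1.36 and 1.33 CPM in the NCACS livers and 3.85, 1.08, 1.27, 2.14 and 2.29 CPM in the CACS livers. Both chains had 1 high NCACS liver, mouse 13, while CACS mouse 16 stood further above its group for H2-DMb1 than for H2-DMa. The log2 fold changes were -0.42 for H2-DMa (SE 0.425, adjusted p = 0.611) and -0.09 for H2-DMb1 (SE 0.434, adjusted p = 0.935), both from edgeR. The exact permutation p-values were 0.683 and 0.937. H2-DMa shares 360 exon bases with Brd2 on the opposite strand, and the strand setting of the counting is not given in the sources used here. Brd2 had 116.6 ± 8.98 CPM in the NCACS group and 154.9 ± 18.9 CPM in the CACS group (SD, n = 5), and its part in the H2-DMa count was not tested.

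Ctss (ENSMUSG00000038642, forward strand, chromosome 3, 95526786 to 95556403) encodes cathepsin S, the protease that makes the last cuts in the invariant chain in professional presenting cells. The NCACS livers had 25.0, 38.0, 40.004, 19.8 and 23.1 CPM. The CACS livers had 34.6, 13.3, 19.03, 22.2 and 19.01 CPM. Ctss differed from the other genes in that NCACS mouse 12 was nearly as high as mouse 13. The log2 estimate was -0.43 (SE 0.260, 95% interval -0.999 to 0.14, adjusted p = 0.361, edgeR; exact permutation p = 0.151).

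Ciita (ENSMUSG00000022504, forward strand, chromosome 16, 10480059 to 10528418) encodes the transactivator of the family and had the lowest p of the 8 genes. It had between 18 and 122 counts per liver. The NCACS livers had 1.31, 1.79, 3.95, 1.14 and 1.33 CPM. The CACS livers had 2.10, 0.656, 0.587, 0.592 and 1.29 CPM. CACS mice 17, 18 and 19 lay below every NCACS liver, but mice 16 and 20 lay within the NCACS range. The log2 estimate was -0.85 (SE 0.452, 95% interval -1.84 to 0.13, unadjusted p = 0.0842, adjusted p = 0.300, edgeR; exact permutation p = 0.0952), which did not pass the threshold. Ciita shares 329 exon bases with Dexi on the opposite strand, which had 19.4 ± 5.86 CPM in the NCACS group and 15.5 ± 2.78 CPM in the CACS group (SD, n = 5), and its part in the Ciita count was not tested.

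**Figure D2:**
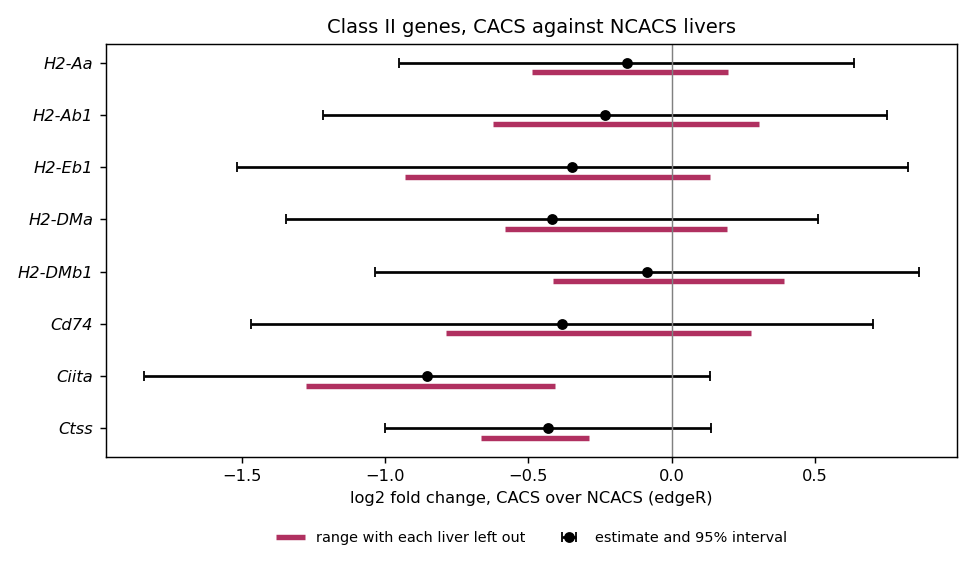
Fitted log2 fold change of CACS over NCACS livers for each class II gene (black points, with 95% intervals from edgeR) and the range of the estimate when each liver was left out in turn (red bars). All 8 intervals include 0, and the red bars cross 0 for H2-Aa, H2-Ab1, H2-Eb1, H2-DMa, H2-DMb1 and Cd74.

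The sign of the difference changed for 6 of the 8 genes when a single liver was left out. For H2-Aa and H2-DMb1 it also changed without certain CACS livers, as given in the last section. Without NCACS mouse 13, the log2 fold change became 0.20 for H2-Aa, 0.31 for H2-Ab1, 0.13 for H2-Eb1, 0.19 for H2-DMa, 0.39 for H2-DMb1 and 0.28 for Cd74. Without CACS mouse 16 it was -0.49 for H2-Aa, -0.62 for H2-Ab1 and -0.79 for Cd74. Ciita and Ctss kept a negative sign with any liver left out, between -1.28 and -0.41 for Ciita and between -0.66 and -0.29 for Ctss. None of the 8 genes passed the adjusted threshold in any of the 10 fits with a liver left out.

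The members differed far more in level than between groups. Per kilobase of the union of exons and averaged over the 10 livers, Cd74 was highest at 53.7 CPM per kilobase, followed by Ctss at 18.7, H2-Ab1 at 11.8, H2-Aa at 11.1, H2-DMb1 at 1.31, H2-DMa at 1.07, H2-Eb1 at 0.426 and Ciita at 0.155 CPM per kilobase. Cd74 exceeded Ctss in 10 of 10 livers, and H2-Aa exceeded H2-DMb1 in 10 of 10 livers, by a mean of 8.72-fold per kilobase. H2-Ab1 and H2-Aa, whose products pair, were not separated, since H2-Ab1 was above H2-Aa in 5 of 10 livers and their mean ratio per kilobase was 1.01. H2-DMb1 was above H2-DMa in 9 of 10 livers, by a mean of 1.23-fold, a log2 difference of 0.30 against an SD of 0.27 among livers. The order depended on the length used. With the longest transcript, H2-Ab1 had 25.0 CPM per kilobase, above Ctss at 18.7 and H2-Aa at 13.03, and H2-DMa had 1.84 and H2-DMb1 1.56 CPM per kilobase.

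Variation among mice of one group was large for the whole family. The within-group SD of log2 CPM was 0.89 for Cd74, 0.88 for H2-Eb1, 0.81 for H2-Ab1, 0.74 for H2-DMb1, 0.74 for Ciita, 0.73 for H2-DMa, 0.66 for H2-Aa and 0.48 for Ctss, against a median of 0.27 over all tested genes. Among all tested genes these SDs ranked between percentile 78.6 (Ctss) and percentile 96.1 (Cd74). NCACS mouse 13 was the highest NCACS liver for 8 of 8 genes and CACS mouse 16 the highest CACS liver for 8 of 8. The lowest CACS liver was mouse 17 for 6 genes and mouse 18 for 2 genes, H2-Ab1 and Ciita. The lowest NCACS liver was mouse 14 for 4 genes and mouse 15 for 4 genes.

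The genes rose and fell together from mouse to mouse. After each group's mean log2 CPM was subtracted, the correlation with H2-Aa over the 10 livers was computed for the other 7 genes, with an exact permutation over the 14400 pairings within groups and Benjamini-Hochberg adjustment over the 7 relations. H2-Ab1 had Pearson's r = 0.99 with an exact permutation p of 0.00146 (adjusted p = 0.00255; Spearman's rho = 0.96, exact p = 0.00104). Cd74 had r = 0.97 with an exact permutation p of 0.00132 (adjusted p = 0.00255; rho = 0.92, exact p = 0.00604). H2-DMb1 had r = 0.96 with an exact permutation p of 6.94e-05, the smallest these pairings can give (adjusted p = 0.000486; rho = 0.98, exact p = 6.94e-05). H2-DMa had r = 0.90 with an exact permutation p of 0.000694 (adjusted p = 0.00243; rho = 0.94, exact p = 0.000347). The second I-A chain, the invariant chain and both DM chains thus tracked H2-Aa.

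For these genes r stayed close to its value over all livers when the extreme livers were left out. Without NCACS mouse 13 and CACS mouse 16, the livers farthest from the median of H2-Aa, r over the remaining 8 livers was 0.97 for H2-Ab1, 0.93 for Cd74, 0.89 for H2-DMb1 and 0.91 for H2-DMa, with exact permutation p-values of 0.0642, 0.0642, 0.00174 and 0.0347, of which the first 2 did not pass 0.05. The other 3 genes were less tightly bound. Ciita had r = 0.90 (exact permutation p = 0.00590, adjusted p = 0.00689) with rho = 0.68 (exact p = 0.0665), Ctss had r = 0.80 (p = 0.00521, adjusted p = 0.00689) with rho = 0.75 (exact p = 0.0160), and H2-Eb1 had r = 0.83 (p = 0.00931, adjusted p = 0.00931) with rho = 0.65 (exact p = 0.0897). Without mice 13 and 16 their r was 0.61, 0.48 and 0.38, with exact permutation p-values of 0.226, 0.168 and 0.451, so the relation of Ciita, Ctss and H2-Eb1 with H2-Aa rested on those livers.

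**Figure D3:**
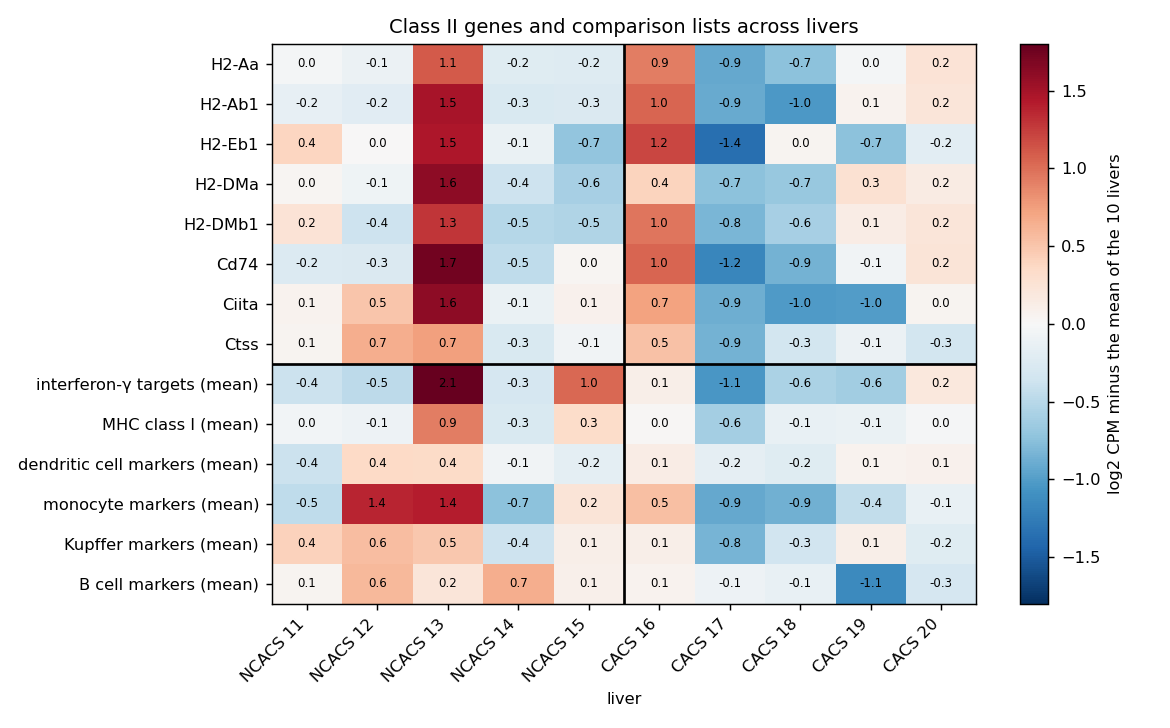
Log2 CPM of each class II gene, and mean log2 CPM of the genes of 6 comparison lists, in each liver, as the difference from the mean of the 10 livers (red above, blue below; the black lines separate members from lists and NCACS from CACS). Mice 13 and 16 are red and mice 17 and 18 mostly blue across the class II genes, while the interferon-γ targets are highest in mice 13 and 15 and lie near the mean of the 10 livers in mouse 16.

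Ratios within a liver set this shared variation aside. The 14 ratios examined were chosen after the values had been seen, so they are given as a description. The ratio of H2-Ab1 to H2-Aa was between 0.559 and 0.892 in all 10 livers, a 1.595-fold range, while H2-Ab1 itself ranged over 5.75-fold. The ratio of Cd74 to H2-Aa was between 1.65 and 3.04. Mouse 13 had the highest value of both ratios. The ratio of Ciita to H2-Aa was 0.0348, 0.0503, 0.0477, 0.0346 and 0.0408 in the NCACS livers and 0.0290, 0.0323, 0.0256, 0.0158 and 0.0283 in the CACS livers. Every CACS liver, mouse 16 included, had less Ciita per H2-Aa than every NCACS liver. Of all tested genes taken over H2-Aa in the same way, 0.75% had groups that did not overlap and 0.262% did so with CACS lower. Without the division 7.07% did not overlap. Division adds the spread of H2-Aa to genes that do not follow it, whereas Ciita had r = 0.90 with H2-Aa. These shares are therefore no like background for Ciita. The ratio of Ciita to H2-Ab1 did not overlap either, at 0.0524 to 0.0786 in NCACS and 0.0216 to 0.0467 in CACS livers. The ratios of Ciita to the other 5 genes overlapped, among them that to Cd74, at 0.0157 to 0.0285 in NCACS and 0.00820 to 0.0196 in CACS livers. The gap between the groups was small beside the counting error of Ciita, which had 38 to 122 counts in NCACS and 18 to 84 counts in CACS livers.

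**Figure D4:**
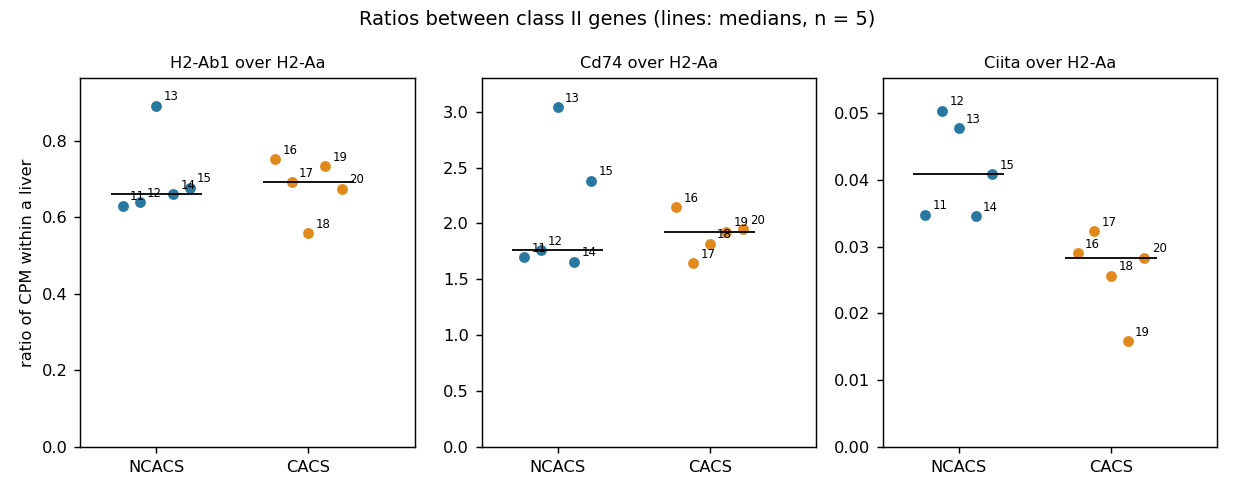
Ratios of CPM of H2-Ab1, Cd74 and Ciita to that of H2-Aa within each liver, with mouse numbers beside the points and lines at the medians of 5 livers per group. The groups overlap for H2-Ab1 and Cd74, while for Ciita the CACS livers lie between 0.0158 and 0.0323 and the NCACS livers between 0.0346 and 0.0503.

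Genes upstream of and beside the class II genes were read as lists, which share a few genes. Over all tested genes, 50.6% had a log2 fold change below 0, 21.6% had an unadjusted p under 0.05 and 3.8% passed in edgeR. DESeq2 called 8.82% of the genes it gave an adjusted p. Of the 15 regulators tested, which include the X and Y box factors (Rfx5, Rfxap, Rfxank, Nfya, Nfyb, Nfyc, Creb1) and the interferon-γ receptor pathway, 0 passed the adjusted threshold in edgeR, 4 had an unadjusted p under 0.05, and the median log2 estimate was 0.00. Among the larger estimates were -0.65 for Ifngr2, a receptor chain (adjusted p = 0.0617), -0.65 for Spi1, the myeloid factor PU.1 (adjusted p = 0.282), and -0.48 for Irf1 (adjusted p = 0.326), all from edgeR. Rfxap, chosen after its values were seen, had groups that did not overlap, at 7.76 to 10.7 CPM in NCACS livers and 11.3 to 14.8 CPM in CACS livers, with a log2 fold change of 0.40 (adjusted p = 0.0776, edgeR). Over all tested genes, 7.07% had groups that did not overlap. DESeq2 called 2 of the 15, Ifngr2 (adjusted p = 0.0146) and Rfxap (adjusted p = 0.0361).

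Of the other class II chains, only H2-Ob and H2-DMb2 were tested, and 0 passed. H2-Ob, a chain of the DO heterodimer that restrains DM, had a log2 estimate of -0.78 (adjusted p = 0.232), and H2-DMb2, the neighbour and close relative of H2-DMb1, had -0.19 (adjusted p = 0.809, both edgeR). H2-DMb1 and H2-DMb2 are similar enough that reads could be shared between them, and their separate values are uncertain. Of 14 genes of endosomal antigen processing, 0 passed, 4 had an unadjusted p under 0.05 and the median log2 fold change was -0.20. The largest estimates were those of March1, a ligase that removes class II molecules from the surface (-0.59, adjusted p = 0.375), and of the cathepsins Ctsz (0.35, adjusted p = 0.128) and Ctsb (-0.25, adjusted p = 0.172) and the asparaginyl endopeptidase Lgmn (-0.25, adjusted p = 0.363, all edgeR). Of the 4 costimulatory genes tested, 0 passed and 2 had an unadjusted p under 0.05. Cd274, the inhibitory ligand PD-L1, had -1.22 (adjusted p = 0.0898), Cd40 -0.64 (adjusted p = 0.376), Cd86 -0.62 (adjusted p = 0.135) and Icosl 0.04 (adjusted p = 0.961, all edgeR). DESeq2 called Cd274 (adjusted p = 0.0171) and Ctsb (adjusted p = 0.0396).

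MHC class I molecules present peptides made inside the cell. Of 12 class I genes, 11 had a log2 fold change below 0 with a median of -0.43, and 0 passed in edgeR, with 4 at an unadjusted p under 0.05. The largest estimates were -0.998 for Psmb9, an immunoproteasome subunit (adjusted p = 0.0770), -0.68 for the peptide transporter chain Tap1 (adjusted p = 0.124), -0.57 for its partner Tapbp (adjusted p = 0.323) and -0.48 for H2-T23 (adjusted p = 0.122, all edgeR). Psmb9 had groups that did not overlap, at 16.4 to 53.9 CPM in NCACS livers and 10.4 to 15.8 CPM in CACS livers, and DESeq2 called it (adjusted p = 0.0132). Over all tested genes, 50.6% had an estimate below 0, 21.6% had an unadjusted p under 0.05 and 7.07% did not overlap. DESeq2 called 8.82% of the genes it gave an adjusted p. The list summed to 6427 CPM in mouse 13 and 5672 CPM in mouse 15, against 3892 to 4309 CPM in the other NCACS livers. The common sign of 11 genes is thus not 11 separate observations.

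The interferon-γ targets had the lowest median of the related lists. Over all tested genes, 50.6% had an estimate below 0, 21.6% had an unadjusted p under 0.05 and 3.8% passed the adjusted threshold. In this list all 15 tested targets had an estimate below 0, with a median of -0.89. Of these, 9 had an unadjusted p under 0.05, and 1 passed the adjusted threshold. That gene was Iigp1, an interferon-inducible GTPase, with 237.4 to 395.5 CPM in NCACS livers and 114.8 to 214.1 CPM in CACS livers and an estimate of -0.83 on the log2 scale (SE 0.204, adjusted p = 0.0468, edgeR). Its adjusted p was between 0.0551 and 0.104 with a liver left out, so the call was lost in all 10 such fits, while the estimate ranged from -0.93 to -0.71. The largest estimates of the list, none past the threshold, were those of the chemokine Cxcl9 (-2.88, adjusted p = 0.172), Tgtp1 (-2.52, adjusted p = 0.189), Gbp3 (-1.86, adjusted p = 0.126) and Gbp2 (-1.30, adjusted p = 0.307, all edgeR). DESeq2 called 4 of the 15, Iigp1, Gbp4, Cd274 and Irgm1 (8.82% of all genes it gave an adjusted p). It gave Cxcl9 no adjusted p. Among NCACS livers the list summed to 1290 CPM in mouse 13 and 832.1 CPM in mouse 15, against 422.5 to 474.4 CPM in the others. The common sign of the list is thus not 15 separate observations.

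Mouse 13 was high for the class II genes and for the interferon-γ targets, and mice 15 and 16 differed in this. Cxcl9 had 6.08, 4.48, 214.5, 4.07 and 23.4 CPM in NCACS mice 11 to 15 and 10.6, 1.60, 2.97, 3.16 and 15.8 CPM in CACS mice 16 to 20. Tgtp1 had 23.03 CPM in mouse 13 and 14.9 CPM in mouse 15, and at most 2.405 CPM in the other 8 livers. Mouse 15 was thus second for these targets among NCACS livers and had 832.1 CPM summed over the list, against 422.5 to 474.4 CPM in mice 11, 12 and 14, and it was the lowest NCACS liver for H2-Aa, H2-Eb1, H2-DMa and H2-DMb1 but the second highest for Cd74. Mouse 16, the highest CACS liver for all 8 class II genes, had 440.2 CPM summed over the targets, the highest sum of the CACS livers (the lowest was 254.6 CPM) and within the range of those 3 NCACS livers, although by mean log2 CPM of the targets mouse 20 was the highest CACS liver. Mice 13 and 15 also had the lowest hepatocyte marker sums of the 10 livers, 90406 and 83804 CPM, whereas mouse 16 had 138031 CPM. These sums are mostly Alb, at 52622 CPM in mouse 13. By mean log2 CPM of the same markers, mouse 13 lay at -0.07 from the mean of the 10 livers. This was inside the NCACS range of -0.25 (mouse 15) to 0.07 (mouse 11). The part of the hepatocyte markers in the class II values was not tested.

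Markers of the cells that make class II proteins were compared with H2-Aa in the same way as the members, over 12 marker lists and the class I and interferon-γ target lists, 14 relations added after the data had been seen. The mean log2 CPM of 7 pan-leukocyte genes such as Ptprc and Laptm5 had r = 0.78 with H2-Aa (exact permutation p = 0.00174, adjusted p = 0.0218, rho = 0.72). For T and NK cell markers r was 0.74, for monocyte markers 0.71 and for neutrophil markers 0.68 (adjusted exact permutation p = 0.0218 each). Class I genes had r = 0.75 (adjusted exact permutation p = 0.0218) and interferon-γ targets r = 0.71 (adjusted exact permutation p = 0.0371, rho = 0.35). Without mice 13 and 16, r for these 6 lists was between 0.20 and 0.51, with exact permutation p-values between 0.0816 and 0.392, so these relations rested on those livers. Dendritic cell markers had r = 0.62 (adjusted exact permutation p = 0.0758), Kupffer cell markers r = 0.65 (adjusted p = 0.112) and B cell markers r = -0.06 (adjusted p = 0.968), none past the threshold, and for the Kupffer markers r was 0.61 without mice 13 and 16 (exact permutation p = 0.0868). Hepatocyte markers had r = 0.54 (adjusted exact permutation p = 0.140) and rho = 0.77 (adjusted exact permutation p = 0.0408), and r was 0.40 without mice 13 and 16 (exact permutation p = 0.00868).

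The marker lists were also compared between groups, and their part in the class II values was not tested. The list sums given here overlapped between the groups. Over all tested genes 50.6% had an estimate below 0 and edgeR called 3.8%, while DESeq2 called 8.82% of those it gave an adjusted p. The 12 Kupffer cell markers summed to between 240.3 and 424.5 CPM in NCACS livers and between 160.0 and 327.5 CPM in CACS livers; their median log2 estimate was -0.39, with 1 gene past the threshold, the scavenger protein Cd5l (-0.90, adjusted p = 0.0374, edgeR; 0.0438 to 0.0862 with a liver left out). Of the 12 estimates 11 were below 0, from -1.22 for Marco (adjusted p = 0.0968) and -0.96 for Adgre1 (adjusted p = 0.0583) to -0.11 for Clec4f (adjusted p = 0.782, all edgeR), and DESeq2 called 3, Cd5l, Adgre1 and Marco. The 8 monocyte markers summed to between 51.3 and 152.7 CPM in NCACS livers and between 35.7 and 79.8 CPM in CACS livers, with a median of -1.12 and 0 genes past the threshold in edgeR, while DESeq2 called 1, Lyz2 (adjusted p = 0.00723). The 3 tested neutrophil markers had a median of -1.66, with 0 past the threshold in edgeR and 2 in DESeq2, and the list summed to between 4.396 and 20.5 CPM in NCACS livers and between 2.44 and 6.15 CPM in CACS livers. The 7 pan-leukocyte genes all had estimates below 0, with a median of -0.62 and 0 called by edgeR or DESeq2. They summed to 90.05 and 99.3 CPM in NCACS mice 12 and 13, against 40.8 to 52.7 CPM in the other NCACS livers. In CACS livers the sums were 31.3 to 61.3 CPM. Neutrophil sums were 20.5 and 19.5 CPM in mice 12 and 13, against at most 5.74 CPM in the other NCACS livers. Monocyte sums were 152.7, 119.2 and 108.1 CPM in mice 12, 13 and 15, and 62.3 and 51.3 CPM in mice 11 and 14. The common sign within each of these lists is thus not a set of separate observations. The 5 tested T and NK cell markers had a median of -0.43, with 0 called by edgeR and 1 by DESeq2. They went in both directions, with 3 estimates below 0 and 2 above. Cd4, the gene DESeq2 called (adjusted p = 0.0353), had -1.04 (adjusted p = 0.109, edgeR). Klrb1c had 1.14 (adjusted p = 0.144, edgeR). For the 11 dendritic cell markers the median was -0.12 and 0 passed in edgeR. Of these, 6 had estimates below 0 and 5 above, among the latter Cd209a (0.80, adjusted p = 0.405) and Itgae (0.78, adjusted p = 0.172, both edgeR). Markers of cross-presenting dendritic cells went in both directions, with Xcr1 at -0.89 (adjusted p = 0.149) and Batf3 at -0.46 (adjusted p = 0.471, both edgeR), whereas Clec9a was 1.26 to 2.04 CPM in NCACS livers and 2.15 to 2.68 CPM in CACS livers (log2 fold change 0.66, adjusted p = 0.0603, edgeR; 0.0136, DESeq2). Groups did not overlap for 7.07% of all tested genes. For the 6 B cell markers tested the median was -0.74, with 0 past the threshold in edgeR and 1 in DESeq2.

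The genes whose pattern among mice was most like that of the class II genes were sought over all tested genes. The measure was Pearson's r with the mean log2 CPM of H2-Aa, H2-Ab1, H2-Eb1 and Cd74 over the 10 livers after subtraction of group means, and it is given as a description. Over 14135 genes the median r was -0.03 and the 99th percentile 0.80. The 10 highest were Itgal (0.94), C130050O18Rik (0.93), Gm11843 (0.92), Tmem51 (0.91), Ighg2c (0.91), Gbp8 (0.91), Il18bp (0.90), Pilra (0.90), Ppfia4 (0.90) and Cybb (0.89). Itgal encodes the α chain of the leukocyte integrin LFA-1, Cybb the phagocyte oxidase subunit, Ighg2c an immunoglobulin heavy chain constant region and Il18bp the interleukin-18 binding protein. Itgal had 9.08, 10.01, 16.5, 9.55 and 9.42 CPM in the NCACS and 13.6, 5.69, 8.75, 9.89 and 9.08 CPM in the CACS livers, again with mice 13 and 16 at the top. None of the 10 passed the threshold between groups, with adjusted p-values from edgeR between 0.224 and 0.994.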

How the data were processed

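Liver RNA of 5 NCACS and 5 CACS mice was sequenced by the authors as stranded poly(A) libraries with single-end reads. The authors aligned the reads to GRCm38 with STAR 2.4.1d, counted them per Ensembl gene with HTSeq 0.6.1 and deposited the raw counts without normalization. The annotation release and the strand setting are not given in the sources used here. The reference is of C57BL/6J, whereas the mice were on FVB, and the effect of H2 haplotype differences on mapping was not tested. All columns belonged to these livers (0 others).

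Symbols and coordinates were taken from GENCODE M21, which lacked 1081 identifiers. Low counts were removed by filterByExpr, TMM factors were applied, and the quasi-likelihood test of edgeR 4.0.16 was run in R 4.3.3 with no covariates. Log2 CPM used a prior count of 2. Exact permutation tests were two-sided, with 252 assignments and a smallest p of 0.00794 for group comparisons. Limma 3.58.1 (voom), DESeq2 1.42.0, other scaling factors, other filters, a prior count of 0.5, transcript lengths and leaving out each liver were the alternatives. No batch correction was applied, since that of the study covered further libraries, which are not analysed here. The scripts were tested on simulated data. No livers of a group agreed within sampling noise (chi-square per degree of freedom at least 34.5). The livers are 1 per mouse, so p-values measure the spread between mice.

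The members and lists were chosen with earlier results of these data known. The text names all 8 members, in each related list the genes past the threshold and otherwise up to 4 with the largest absolute log2 fold change, and the 10 genes most alike in pattern; names outside this rule are said to be chosen after their values were seen, apart from markers used to describe a list and genes called by DESeq2. Of the other marker lists (sinusoidal endothelial, stellate, cholangiocyte and red blood cell), 0 genes passed the threshold. Promoter sequences are from the RefSeq table on GRCm38.p6. Some genes and 1 allele that the rule or the labels name are not reported here.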

Additional observations from a re-analysis of the deposited data

Results flagged for a closer look

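In each group of 5 livers the gap between the highest or lowest liver and its neighbour, divided by the range of the group, was compared with Dixon's 95% critical value of 0.71. Of 72 combinations of a measure and a group, 9 passed, where chance gives about 1 in 20, and the measures are correlated with one another. NCACS mouse 13 stood above its group for log2 CPM of H2-Aa (gap over range 0.847), H2-Ab1 (0.934), H2-DMa (0.716) and Cd74 (0.773). The same mouse was highest for the log2 ratio of H2-Ab1 to H2-Aa (0.793) and of Ciita to Ctss (0.723). CACS mouse 19 was lowest for the log2 ratio of Ciita to H2-Ab1 (0.752), at 0.0216. CACS mouse 17 was lowest for the summed class I genes (0.715), at 2748 CPM against at least 3946 CPM in the other CACS livers. NCACS mouse 12 was highest for the summed cholangiocyte markers (0.807). No CACS liver passed this value for a single class II gene, although mouse 16 was the highest CACS liver for all 8.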

How the results depend on the processing

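No paired analysis was possible because no replicate number occurs in both groups. No class II gene was called (0 of 8) under any scaling, filter, test or liver left out. DESeq2 called 1376 genes in all and 8 related genes, against 538 and 1; with each liver left out, edgeR called 178 to 519 genes and 0 to 1 related genes. The 1 related gene called then was Ctsz, without CACS mouse 17, and Iigp1 was lost each time. With each liver left out, the log2 fold change ranged from -0.49 to 0.20 for H2-Aa, -0.62 to 0.31 for H2-Ab1, -0.93 to 0.13 for H2-Eb1, -0.58 to 0.19 for H2-DMa, -0.41 to 0.39 for H2-DMb1 and -0.79 to 0.28 for Cd74. The lowest values came without CACS mouse 16 (for H2-DMa, without NCACS mouse 15) and the highest without NCACS mouse 13. H2-Aa was also at 0.01 without CACS mouse 17, and H2-DMb1 at 0.09 and 0.05 without CACS mice 17 and 18. Scaling, filter and test changed no sign among the 8 genes, and H2-Eb1 was removed by a minimum of 10 counts in every liver. All 7 correlations with H2-Aa passed with raw library totals, and 5 to 7 with a liver left out. Depth limits H2-Eb1 and Ciita most, with as few as 9 and 18 counts per liver; intervals that rest on counts do not cover other errors. No cause of these changes was tested.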
